A study of Mus musculus with 48 samples.

Results

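The 12 arrays of wild-type mouse aorta on postnatal day 1 (P1) were compared by location, 6 of ascending aorta (AA) against 6 of descending aorta (DA). They were chosen by their labels alone and are 12 of the 48 arrays of the series, which also holds knockouts (KO) and embryonic day 17.5 (E17.5). The wild types came from 3 mouse lines kept to study elastic fibre defects, with 2 arrays per line and location. Wild types of the Eln and Efemp2 lines were C57BL/6, and those of the Lox line were B6 albino. No array of the comparison carried a knockout allele, so the line serves here as a block and is called the model. Each array held RNA of 8 pooled aortas, and no label gives the sex of the animals or says that paired AA and DA pools came from the same animals. The p-values measure the spread between such pools together with differences between models in the location effect. The number of arrays limits their precision. The comparison asked which genes distinguish the 2 segments of a normal aorta at birth.

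The segments have different developmental origins. Smooth muscle of the ascending aorta derives from the neural crest and the second heart field, whereas that of the descending aorta derives from paraxial and lateral mesoderm of the trunk. Hox genes encode transcription factors that mark position along the body axis, with the genes of a cluster used in order of their paralogue numbers from head to tail. The ascending aorta lies close to the heart and the thymus, and the descending aorta lies beside the sympathetic chain and brown fat.

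The promoters of 4 transcription factor genes that passed the test of location are shown as examples from both directions. They were chosen from the genes with an entry in the promoter table used here, and those of Hoxb6 and Osr2 are not shown. Hoxa6 and Hoxa5 were higher in DA, and Tcf21 and Hand2 were higher in AA. The sequences are the 250 bases before the annotated start in RefSeq (GRCm38.p6), written 5′ to 3′ on the strand of the gene. Hoxa6 is at chr6:52208673-52208922 and Hoxa5 at chr6:52204588-52204837, both on the minus strand. Tcf21 is at chr10:22820144-22820393 on the minus strand and Hand2 at chr8:57320733-57320982 on the plus strand. Capitals mark matches to the E-box CANNTG, the motif of basic helix-loop-helix factors such as Tcf21 and Hand2 themselves.
Hoxa6: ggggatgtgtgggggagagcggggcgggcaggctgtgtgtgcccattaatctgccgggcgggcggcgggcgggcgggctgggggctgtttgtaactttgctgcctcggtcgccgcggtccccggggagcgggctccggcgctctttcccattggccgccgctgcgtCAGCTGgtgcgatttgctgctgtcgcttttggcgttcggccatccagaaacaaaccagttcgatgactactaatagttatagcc
Hoxa5: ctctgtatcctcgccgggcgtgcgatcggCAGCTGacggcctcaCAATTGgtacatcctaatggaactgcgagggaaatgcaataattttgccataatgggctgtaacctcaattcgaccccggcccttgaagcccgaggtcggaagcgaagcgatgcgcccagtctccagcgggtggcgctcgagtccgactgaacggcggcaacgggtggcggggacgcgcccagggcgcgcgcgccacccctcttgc
Tcf21: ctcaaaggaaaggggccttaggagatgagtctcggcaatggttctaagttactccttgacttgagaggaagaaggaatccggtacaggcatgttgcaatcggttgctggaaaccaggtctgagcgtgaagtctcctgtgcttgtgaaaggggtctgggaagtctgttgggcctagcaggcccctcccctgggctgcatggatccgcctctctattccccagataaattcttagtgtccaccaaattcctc
Hand2: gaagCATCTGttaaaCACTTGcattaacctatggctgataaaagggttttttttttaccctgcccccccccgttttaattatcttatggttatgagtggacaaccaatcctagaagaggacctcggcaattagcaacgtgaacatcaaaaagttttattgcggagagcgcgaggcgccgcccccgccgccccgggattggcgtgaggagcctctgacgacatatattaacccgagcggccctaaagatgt
Hoxa6 had 1 E-box, Hoxa5 had 2, Tcf21 had 0 and Hand2 had 2. The motifs TGACAG of Meis factors and TGATTNAT of Pbx-Hox pairs, which would also have been in capitals, had 0 matches in these 4 windows. All motifs were searched on both strands. A promoter was matched for 23 of the 30 genes higher in DA and 25 of the 28 genes higher in AA. An E-box was present in 60.9% and 72% of these, TGACAG in 21.7% and 24%, TGATTNAT in 4.35% and 12%, and the Gata motif GATAAG in 13% and 4%. Over the 9368 tested genes with a promoter the shares were 57.4%, 14.2%, 1.38% and 4.55%, and over all 27018 promoters they were 66.1%, 15.9%, 2.98% and 6.58%. These are matches of letters, not sites of binding.

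All values are log2 array signals, and differences are DA less AA with standard errors from limma. The median array signal ran from 4.52 to 4.89 in the Eln and Efemp2 arrays and from 5.21 to 5.35 in the Lox arrays, and replicate arrays correlated across genes at r = 0.861 to 0.989, where genes are not independent replicates. The defining smooth muscle genes were high at both locations, with Acta2 between 11.40 and 12.64 in the 12 arrays. In 4 arrays of the Eln and Efemp2 models, probe sets without a gene name had medians of 4.35 to 4.37, against 3.83 to 4.09 in the other 4. These high-background arrays, so called among the Eln and Efemp2 arrays only, are both Eln DA arrays and replicate 2 of Efemp2 AA and of Efemp2 DA. In the Lox arrays the same medians were 4.67 to 4.74. Leaving the 4 arrays out removes all Eln DA arrays, so the Eln model then gives no location difference, and Efemp2 keeps 1 array per location. Replicate 1 of Eln DA also had an Eln signal of 9.20, where the other 11 arrays had 11.65 to 12.27. The median tested gene moved by -0.36 between the locations in the Eln model, by 0.02 in Efemp2 and by 0.15 in Lox, and values of single models are given less this shift. In the Eln model, probe sets without a gene name moved the other way, from 3.83 and 3.88 in AA to 4.35 in DA. The shift may thus not hold for dim genes, whose Eln values it raises all the same. Hoxb6 in the Eln model was at 1.44 before it and 1.80 after. In these whole-tissue samples, fewer cells of a type and less RNA per cell cannot be told apart.

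The location test in limma called 58 of 11927 genes at an adjusted p of 0.05 (0.486%), 30 of them higher in DA (0.252%) and 28 higher in AA (0.235%). All 58 had the same sign in all 3 models, also less the shift of each model. Both DA arrays lay beyond both AA arrays in every model for 29 of the 30 genes higher in DA (1.74% of all tested genes were so separated in that direction) and for 26 of the 28 genes higher in AA (1.48%). All 6 arrays of one location lay above all 6 of the other for 5 genes higher in DA (0.168%) and 6 genes higher in AA (0.0671%). These signs and separations were read in the same arrays that chose the genes, so they are no separate support. Differences of the 58 genes ran from 0.80 to 1.89 in the DA direction and from -0.85 to -2.50 in the AA direction.

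The count depended on single arrays. Leaving out 1 array gave 13 genes without replicate 2 of Lox DA, 21 and 22 without replicates 1 and 2 of Lox AA, 26 without replicate 2 of Efemp2 DA, 27 without replicate 1 of Eln DA, 28 without replicate 1 of Lox DA, 29 without replicate 1 of Efemp2 DA and 30 without replicate 1 of Eln AA or of Efemp2 AA. Without the 4 high-background arrays 68 genes passed, 56 higher in DA, 12 higher in AA and 30 of them among the 58. The sign held for 58 of 58 genes in each of 26 other settings of processing, blocking or left-out arrays. Much of this was set in advance. Settings that changed only blocks or variances left the differences as they were, and all 58 had the same sign in all 3 models. For most genes named below, the number of the 26 settings in which the gene still passed is given beside it. In 7 of the 30 genes higher in DA and 9 of the 28 higher in AA, the mean of the lower location was under 5.19, the signal needed for testing, and such differences are given without a fold.

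**Figure D1:**
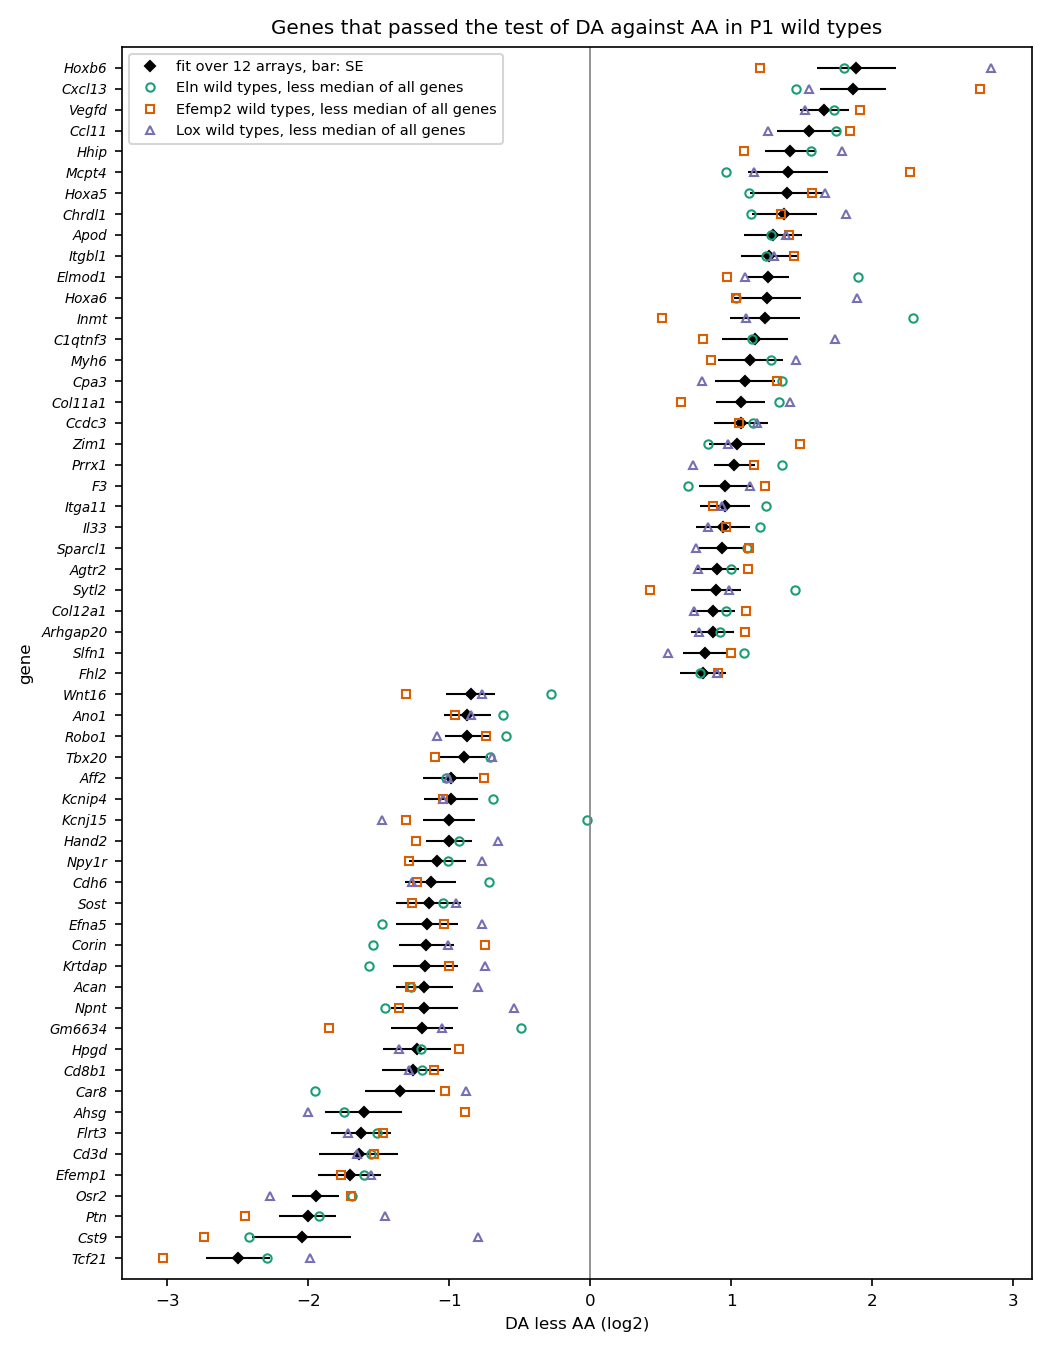
Difference between DA and AA (log2, horizontal axis) of each gene that passed the test in the P1 wild types, with the estimate over all arrays and its standard error and the difference in each model. The 30 genes higher in DA lie right of 0 and the 28 genes higher in AA lie left of it, with Hoxb6 and Tcf21 at the ends.

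The Hox genes that passed were 3 from the middle of their clusters, and they were higher in DA. Among genes with a probe set of their own, Hoxb6 had the largest DA-high difference that passed, and Hoxa5 and Hoxa6 also passed. The lowest, median and highest Hoxb6 signals were 4.14, 4.58 and 5.04 in AA and 5.36, 6.22 and 7.79 in DA, so all DA arrays lay above all AA arrays. The AA mean lay under 5.19. The difference was 1.89 ± 0.28 (adjusted p = 0.00942), with 1.80, 1.21 and 2.84 in the Eln, Efemp2 and Lox models, and it passed in 24 of 26 other settings. Hoxa6 signals were 4.90, 5.21 and 5.61 in AA and 5.68, 6.30 and 7.52 in DA, again without overlap. Its difference was 1.26 ± 0.24 (adjusted p = 0.0342), which passed in 11 of 26 settings and did not pass without the 4 high-background arrays. For Hoxa5, whose promoter lies next to that of Hoxa6 above, the signals were 4.01, 4.95 and 5.88 in AA and 4.92, 6.21 and 7.69 in DA. The 2 locations overlapped in Hoxa5 across models but not within any model, and the difference was 1.39 ± 0.26 (adjusted p = 0.0297), which passed in 14 of 26 settings.

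Of 39 Hox genes listed, 36 had a probe set of their own, 14 reached the signal needed for testing, 3 were higher in DA and 0 were higher in AA. The median difference of the 14 was 0.29, against -0.06 over all tested genes, and 10 of 14 were above 0. By paralogue number, all 7 tested genes of numbers 5 to 8 were above 0, with a median of 1.26. Of the 6 tested genes of numbers 1 to 4, 2 were above 0 and the median was -0.19. Because a gene could reach that signal through the location where it was high, all 36 were also counted. Above 0 were 5 of 10 genes of numbers 1 to 4 (median -0.03), 11 of 11 of numbers 5 to 8 (median 0.85) and 13 of 15 of numbers 9 to 13 (median 0.08). Over all genes with no filter on signal the median was 0.03, near that of numbers 9 to 13. The share of those genes above 0 was not counted. Hoxd10, at 0.29, was the only one of the 15 genes of numbers 9 to 13 to reach the signal for testing. The Hox count was 0 without the Lox model, and it was 1 without the Efemp2 model, without any 1 of the 4 Lox arrays, without either Efemp2 AA array and with no filter on signal. It was 0 with no block for model. It was 4 with centred medians, with trend and robust variances, with background as a covariate and without replicate 1 of Eln DA, and 5 in a fit of all 48 arrays.

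Among the Hox genes that did not pass, Hoxc6 came closest. It had a difference of 1.56 (adjusted p = 0.0524), with AA signals of 3.75 to 4.46 and DA signals of 4.53 to 6.80, which did not overlap. Hoxb5 differed by 0.64 (adjusted p = 0.245). Hoxa2, a gene of the head end of the cluster, had a difference of -0.54 (adjusted p = 0.301). Of 7 tested Hox cofactors, the Meis and Pbx proteins that bind DNA together with Hox proteins, 0 passed, with a median of -0.03. Of 15 tested genes of retinoic acid handling, whose signal sets Hox expression in the embryo, 0 passed, with a median of -0.16.

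**Figure D2:**
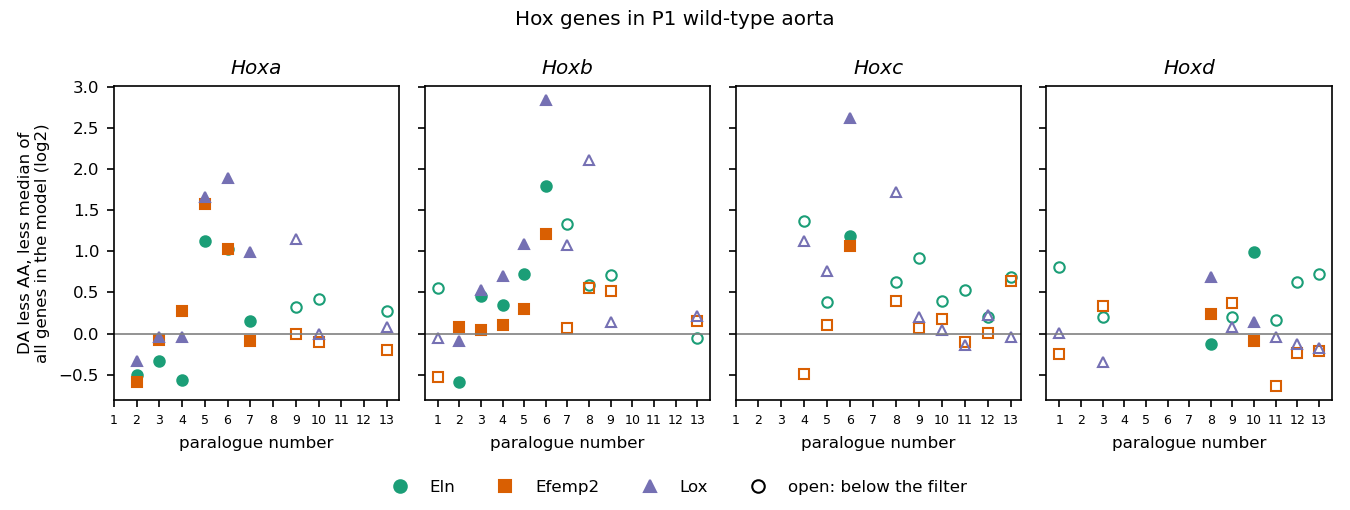
DA less AA of each Hox gene, less the median of all genes in the model (log2, vertical axis), by paralogue number within clusters a to d, with 1 point per model. Points of paralogue numbers 5 to 8 lie mostly above 0, and Hoxb6 reaches 2.84 in the Lox model.

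In the lists of mesodermal and outflow tract transcription factors 5 genes passed, and 4 of these were higher in AA. Tcf21, a basic helix-loop-helix factor of epicardium-derived and visceral fibroblasts, had the largest difference of the 58 genes. Its lowest, median and highest signals were 7.19, 7.75 and 8.05 in AA and 4.51, 4.96 and 5.96 in DA, and every AA array lay above every DA array. The difference was -2.50 ± 0.23 (adjusted p = 1.38e-04), with -2.29, -3.03 and -1.99 in the 3 models, and Tcf21 was the only 1 of the 58 to pass in all 26 other settings. Osr2, a zinc finger factor of the odd-skipped family, had signals of 5.74, 6.74 and 7.84 in AA and 4.14, 4.70 and 5.55 in DA, with no overlap. It differed by -1.95 ± 0.17 (adjusted p = 1.26e-04) and passed in 25 of 26 settings.

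Hand2, a factor of the second heart field, the neural crest and sympathetic neurons, had signals of 6.81, 7.09 and 7.69 in AA and 5.66, 6.24 and 6.69 in DA, and its locations did not overlap. The difference of Hand2 was -1.0 ± 0.16 (adjusted p = 0.0167), it passed in 19 of 26 settings, and it did not pass without the 4 high-background arrays. Tbx20, a T-box factor of heart and outflow tract, differed by -0.90 ± 0.17 (adjusted p = 0.0380) and passed in 7 of 26. Without the 4 high-background arrays Tbx20 did not pass either. Prrx1, a homeobox factor of limb and craniofacial mesenchyme that was placed in the outflow and pharyngeal list, was the exception in direction. It was higher in DA, with signals of 6.43, 6.65 and 8.72 in AA and 7.36, 7.81 and 9.59 in DA, a difference of 1.02 ± 0.14 (adjusted p = 0.00598) and 1.36, 1.16 and 0.73 in the 3 models. The Prrx1 locations overlapped across models but not within one, and it passed in 23 of 26 settings.

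Of the 21 tested outflow tract and pharyngeal factors, Hand2 and Tbx20 were higher in AA, Prrx1 was higher in DA and 18 did not pass, with a list median of -0.15. Among those 18, Dlx5, a factor of the pharyngeal arches, had a difference of -0.91 (adjusted p = 0.213) and Gata6, a factor of smooth muscle and heart, one of -0.57 (adjusted p = 0.180). Of the 10 tested factors of somites and trunk mesoderm, the list that held Tcf21 and Osr2, 0 were higher in DA and 8 did not pass. Its median was -0.02. Tcf21 is known from visceral and Osr2 from palatal and urogenital mesenchyme, and both were low in the trunk segment.

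**Figure D3:**
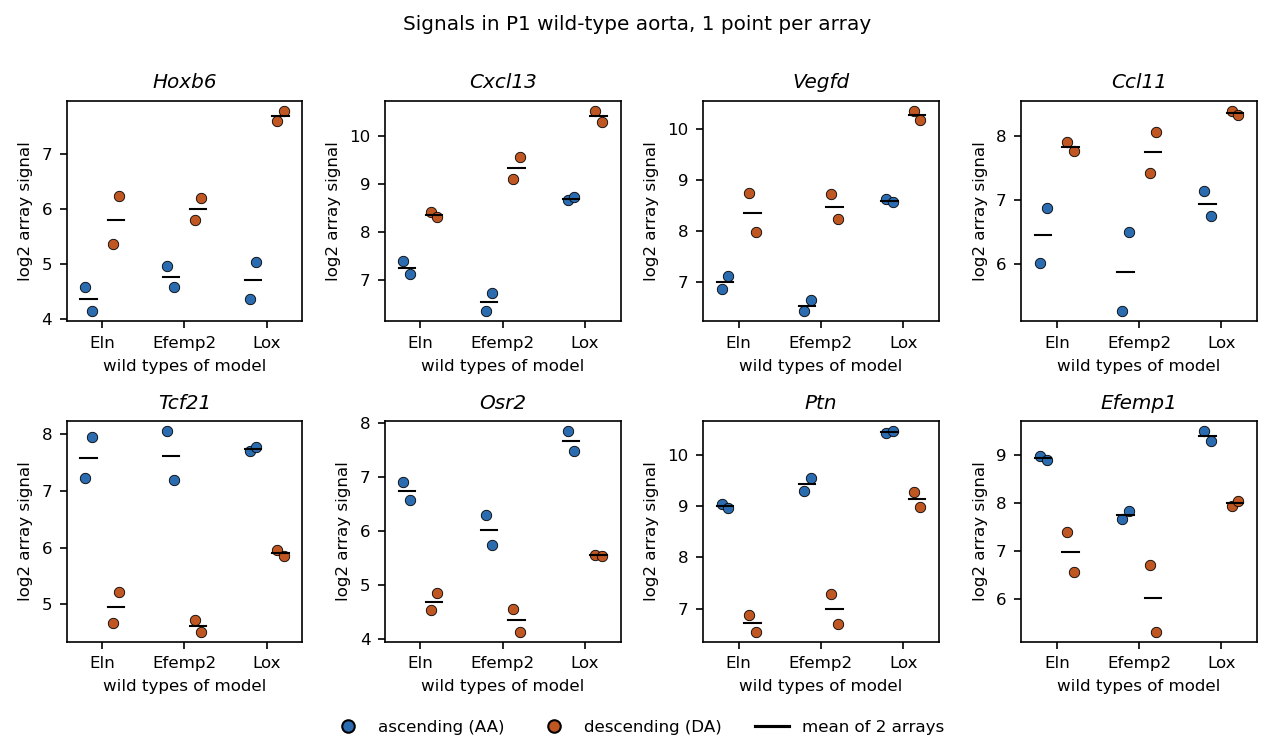
Log2 array signals (vertical axis) of selected genes in the P1 wild types by model (horizontal axis), with 1 point per array, coloured by location, and a line at the mean of each pair. Tcf21 and Osr2 are higher in each AA array than in any DA array, and Hoxb6 and Ccl11 show the reverse.

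Genes of secreted signals and their antagonists were among the largest DA-high differences. Cxcl13, a chemokine that attracts B cells, had signals of 6.36, 7.26 and 8.72 in AA and 8.30, 9.33 and 10.51 in DA, which overlapped across models but not within one. The difference was 1.86 ± 0.23 (3.64-fold, adjusted p = 0.00233), and the value of the Efemp2 model was the largest (1.46, 2.77 and 1.55 in Eln, Efemp2 and Lox). Vegfd, a ligand of the lymphatic VEGF receptor, had 6.43, 7.0 and 8.63 in AA and 7.98, 8.74 and 10.35 in DA and differed by 1.66 ± 0.17 (adjusted p = 4.45e-04). Its 3 model values were close to each other, at 1.73, 1.91 and 1.52, and the locations overlapped only across models.

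Ccl11, or eotaxin, which attracts eosinophils, had signals of 5.26, 6.62 and 7.14 in AA and 7.42, 7.98 and 8.39 in DA, and no DA array was as low as any AA array. Its difference was 1.55 ± 0.23 (adjusted p = 0.00884). Hhip, a membrane protein that binds and restrains hedgehog ligands, differed by 1.42 ± 0.18 (adjusted p = 0.00233). Chrdl1, a secreted antagonist of bone morphogenetic proteins (BMP), differed by 1.38 ± 0.23 (adjusted p = 0.0208). Cxcl13, Vegfd, Ccl11 and Hhip each passed in 24 of 26 other settings, and Chrdl1 passed in 17.

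Single genes passed in the hedgehog, BMP and Wnt lists. Of 11 tested hedgehog genes Hhip alone passed, and the list median was -0.10. Of 17 tested BMP genes Chrdl1 alone passed, with a median of -0.18. Wnt16, a Wnt ligand, was the only 1 of 21 tested Wnt genes to pass, at -0.85 ± 0.17 (adjusted p = 0.0473), higher in AA, and it passed in 4 of 26 settings. Without the 4 high-background arrays Wnt16 did not pass. None of 17 TGF-beta genes, 14 Notch genes, 19 FGF and PDGF genes or 12 genes of the IGF system passed. Their medians were -0.25, 0.07, -0.33 and -0.23. Fgf7, a growth factor made by mesenchyme, had a difference of 1.13 (adjusted p = 0.0524), and Smad6, an inhibitor of BMP signalling, one of -0.65 (adjusted p = 0.197). Fgf7 passed with cyclic loess, with centred medians and without the 4 high-background arrays, among others, and Smad6 passed without replicate 2 of Efemp2 AA and in the fit of all 48 arrays.

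Further genes higher in DA had other known roles. Apod, a lipocalin that carries small lipids, had signals of 4.90, 5.68 and 6.94 in AA and 6.26, 6.84 and 8.55 in DA and differed by 1.30 ± 0.21 (adjusted p = 0.0151). The Apod locations overlapped across models, while the model values were 1.28, 1.41 and 1.39. Elmod1, of the ELMO domain family, differed by 1.26 ± 0.15 (adjusted p = 0.00149). Apod passed in 22 of 26 settings and Elmod1 in 24. Inmt, an indolethylamine methyltransferase, differed by 1.24 ± 0.25 (adjusted p = 0.0433) and C1qtnf3, a secreted protein of the C1q and tumour necrosis factor family, by 1.17 ± 0.23 (adjusted p = 0.0433). Neither Inmt nor C1qtnf3 overlapped between the locations, yet they passed in only 6 and 8 of 26 settings, and Inmt ran from 0.51 in the Efemp2 model to 2.29 in the Eln model. Inmt did not pass without the 4 high-background arrays.

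Among the largest AA-high differences outside the transcription factors were a growth factor, a matrix protein and adhesion molecules. Ptn, or pleiotrophin, a heparin-binding growth factor, had signals of 8.96, 9.43 and 10.46 in AA and 6.56, 7.09 and 9.28 in DA and differed by -2.01 ± 0.20 (4.01-fold, adjusted p = 3.21e-04). Its locations overlapped across models, the model values were -1.92, -2.45 and -1.46, and it passed in 25 of 26 settings. Efemp1, or fibulin-3, a relative of the product of Efemp2, had 7.67, 8.94 and 9.50 in AA and 5.31, 7.04 and 8.04 in DA and differed by -1.71 ± 0.22 (adjusted p = 0.00305). The Efemp1 values of the models were -1.61, -1.77 and -1.56, its locations overlapped across models, and the call held in 24 of 26 settings. Flrt3, a membrane protein of cell adhesion and axon guidance, had 5.30, 5.53 and 7.72 in AA and 3.22, 4.22 and 6.14 in DA and differed by -1.63 ± 0.21 (adjusted p = 0.00305). In Flrt3 too the locations overlapped across models but not within one, and it passed in 24 of 26 settings.

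Further AA-high genes had less settled calls. Cst9, of the cystatin family, differed by -2.05 ± 0.35 (adjusted p = 0.0231), with -2.42, -2.74 and -0.79 in the 3 models. Ahsg, or fetuin-A, a plasma protein that inhibits calcification, differed by -1.61 ± 0.27 (adjusted p = 0.0208). Cst9 passed in 17 of 26 settings, though not without the 4 high-background arrays, and Ahsg in 16, and each had arrays fully apart in 2 of the 3 models. Car8, a carbonic anhydrase relative without enzyme activity, differed by -1.35 ± 0.25, Hpgd, which degrades prostaglandins, by -1.23 ± 0.24, Npnt, an integrin ligand of basement membranes, by -1.18 ± 0.24, Krtdap, a keratinocyte protein, by -1.17 ± 0.23 and Corin, the protease that activates natriuretic peptides, by -1.16 ± 0.19. Of these 5, only Corin passed in more than 11 of 26 settings (19), and none of the 5 passed without the 4 high-background arrays.

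Matrix genes passed singly, from lists in which most members did not. Of 22 tested genes of collagens and their enzymes, Col11a1 and Col12a1 were higher in DA, 0 were higher in AA, and the list median was -0.13. Col11a1, a fibrillar collagen of cartilage and other tissues, had signals of 4.73, 5.24 and 5.84 in AA and 5.70, 6.00 and 7.34 in DA and differed by 1.07 ± 0.17 (adjusted p = 0.0167), with an overlap across models only. Col12a1, a collagen that lies on fibril surfaces, differed by 0.87 ± 0.15 (adjusted p = 0.0244). Col11a1 passed in 19 of 26 settings and Col12a1 in 15. Of 17 tested integrin genes, Itgbl1, an integrin beta-like secreted protein, and Itga11, the alpha chain of a collagen receptor, were higher in DA, by 1.27 ± 0.20 and 0.96 ± 0.18 (adjusted p = 0.0151 and 0.0297). Itga11 passed in 10 of 26 settings and Itgbl1 in 22.

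The elastic fibre list, the subject of the parent lines, had 21 tested genes, of which Efemp1 was higher in AA and 20 did not pass. The list median was -0.21 and 19 of 21 values were below 0, and less the model shifts its medians were -0.42, -0.16 and -0.16. Eln differed by -0.42 ± 0.36 (adjusted p = 0.643) and Lox by -0.21 ± 0.15 (adjusted p = 0.575). The Eln value included the array with a signal of 9.20, and Eln less the shift was -1.11 in the Eln model, 0.06 in Efemp2 and -0.01 in Lox. No probe set carried the name Efemp2. Fbn2, the fibrillin of early elastic fibres, differed by -0.84 (adjusted p = 0.0867).

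None of 15 tested basement membrane genes, 24 proteoglycans and matricellular genes or 18 matrix proteases and inhibitors passed. Their medians were -0.38, 0.07 and -0.27, and 14 of the 15 basement membrane values were below 0, where 6993 of all 11927 tested genes were. Col4a5, a chain of basement membrane collagen, had -0.94 with an adjusted p of 0.0501, and it passed with cyclic loess, with centred medians and without replicate 2 of Efemp2 AA, among others. Acan, or aggrecan, the large proteoglycan of cartilage that was placed among the cartilage and valve markers, was higher in AA, at -1.18 ± 0.20 (adjusted p = 0.0231). It was 1 of 7 tested members of that list and the only one to pass, and the list median was 0.30. Acan passed in 16 of 26 settings, and not without the 4 high-background arrays, where its difference was -0.82.

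No contractile gene passed in the values as deposited. Of 22 tested smooth muscle contractile genes 0 passed, and the list median was -0.15. Smtnl2 of that list passed as higher in AA with cyclic loess (-0.72) and with centred medians (-0.77). Myh11, the smooth muscle myosin heavy chain, differed by 0.23 (adjusted p = 0.579), Acta2, smooth muscle actin, by -0.16 and Tagln, or SM22, by 0.01. Lmod1, which nucleates actin filaments, had the largest size in the list at -0.86 (adjusted p = 0.113). The mean signal of the list was 8.48 to 9.74 in AA and 7.94 to 9.82 in DA, and its lowest value was that of replicate 1 of Eln DA, the array with little Eln signal. The size of a difference in contractile genes that this number of arrays could have shown is limited: in simulated data 72% of genes with a difference of 1 passed, and 4% of those with 0.5. The simulated data gave 144 calls, against 58 here, and held no shifts of whole arrays. These shares may thus be too high for the real arrays.

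Receptors and channels that set vessel tone differed in single members. Agtr2, the angiotensin receptor of fetal tissue, was higher in DA by 0.90 ± 0.16 (adjusted p = 0.0231), and its signals were 7.57, 8.05 and 9.07 in AA and 8.43, 8.98 and 9.91 in DA, with an overlap across models only. Npy1r, a neuropeptide Y receptor that mediates constriction, was higher in AA, at -1.08 ± 0.20 (adjusted p = 0.0297). These were 2 of 21 tested genes of the vasoactive list, and its median was -0.02. Ano1, a calcium-activated chloride channel of smooth muscle, was higher in AA, at -0.87 ± 0.17 (adjusted p = 0.0376), as the only 1 of 16 tested channel genes to pass. Agtr2, Npy1r and Ano1 passed in 13, 10 and 6 of 26 settings, and none of the 3 passed without the 4 high-background arrays.

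Guidance genes that passed were higher in AA. Of 29 tested genes of axon guidance and adhesion, Efna5, an ephrin ligand, differed by -1.16 ± 0.22 and Robo1, a Slit receptor, by -0.87 ± 0.16 (adjusted p = 0.0351 and 0.0270), 0 were higher in DA and the median was -0.13. Efna5 passed in 10 of 26 settings, and without the 4 high-background arrays it did not pass and its difference was -0.52. Robo1 passed in 12 of 26, and not with cyclic loess or centred medians. None of 25 cell cycle genes, 17 immediate early genes, 11 genes of hypoxia and glycolysis, 9 interferon genes or 11 genes of sterol and lipid synthesis passed. The medians of these lists were -0.08, -0.23, 0.03, 0.10 and -0.06.

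Markers of other tissues were examined because a dissected segment can carry its neighbours. Of the T cell genes, 2 were higher in AA. Cd3d, a chain of the T cell receptor complex, had signals of 5.70, 6.40 and 7.79 in AA and 4.21, 4.76 and 5.70 in DA, and Cd8b1, a chain of the CD8 coreceptor, had 6.01, 6.78 and 7.55 in AA and 5.24, 5.64 and 5.68 in DA, so AA and DA did not overlap in Cd8b1 and touched within rounding in Cd3d. The differences were -1.64 ± 0.28 (adjusted p = 0.0208) and -1.26 ± 0.22 (adjusted p = 0.0247), and neither passed without the 4 high-background arrays. Cd3d passed in 17 of 26 settings and Cd8b1 in 13. Of 13 thymocyte and lymphocyte genes with a probe set, 6 were tested, 2 were higher in AA and 4 did not pass. The mean signal of the 13 was 4.79 to 5.98 in AA and 4.41 to 5.30 in DA, and the median of the 6 was -1.01. Cd4, Dntt and Rag2 stayed below the signal needed for testing, as did 8 of the 9 markers of parathyroid, thyroid and thymus epithelium. The part of thymic tissue in the AA-high genes was not tested.

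Of 14 tested heart muscle genes 1 passed, and the list median was 0.29. Myh6, the myosin heavy chain of atria, was higher in DA by 1.14 ± 0.23 (adjusted p = 0.0498), with signals of 4.63, 5.80 and 7.09 in AA and 5.63, 6.73 and 8.66 in DA, which overlapped across models, and it passed in 9 of 26 settings. The atrial light chain gene Myl7 had 1.35 (adjusted p = 0.168), whereas Tnnt2, cardiac troponin T, had -0.79 (adjusted p = 0.339) and the ventricular light chain gene Myl2 had -0.69 (adjusted p = 0.177). The mean signal of the 15 heart muscle markers was 6.28 to 7.41 in AA and 5.87 to 7.93 in DA, and the part of heart tissue in these values was not tested.

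Mast cell genes, grouped here after their values were seen, included 2 that passed in DA. Mcpt4, a mast cell chymase, differed by 1.40 ± 0.28 (adjusted p = 0.0463) and Cpa3, mast cell carboxypeptidase, by 1.10 ± 0.21 (adjusted p = 0.0376). Each passed in 8 of 26 settings, and neither passed without the 4 high-background arrays. Cma1, another chymase, had 0.69 (adjusted p = 0.210) and Kit, the stem cell factor receptor, had 0.49, and neither passed. With cyclic loess Cma1 passed, at 0.82. Tpsb2, a tryptase, had 0.35, Hdc, which makes histamine, had 0.39, and Gata2, a transcription factor of several blood lineages, had -0.15. The part of mast cells in the DA-high genes was not tested.

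No brown fat, skeletal muscle, Schwann cell or endothelial marker passed in the values as deposited. With cyclic loess the endothelial markers Kdr, Sox17 and Vwf passed as higher in DA (0.61, 0.65 and 0.81), but not with centred medians. All 13 tested brown fat markers were above 0, with a median of 0.45, where 41.4% of all tested genes were above 0. Before the model shifts, 5 of the 13 were above 0 in each of the 3 models. Ucp1, the uncoupling protein of brown fat, had 2.01 ± 0.75 (adjusted p = 0.306). The mean signal of that list was 5.73 to 8.10 in AA and 6.72 to 8.13 in DA, a range that overlapped between the locations. Of 13 skeletal muscle markers 12 were below 0, and the median was -0.64, with -0.02, -1.78 and -0.00 in the Eln, Efemp2 and Lox models. The skeletal muscle list stood at 5.63 to 8.11 in AA and 5.60 to 6.49 in DA. Sympathetic neuron and chromaffin markers had a median of 0.52, with 0.48, -0.07 and 1.01 in the 3 models, and Dbh, the enzyme that makes noradrenaline, had 1.26 (adjusted p = 0.211). Hand2, a member of that list too, was its only gene to pass and was higher in AA. Endothelial, macrophage, fibroblast and mesothelial markers had medians of 0.19, 0.11, -0.17 and -0.41, and the part of any of these tissues in the 58 genes was not tested. The endothelial median was -0.26 in the Eln model, 0.47 in Efemp2 and 0.46 in Lox.

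**Figure D4:**
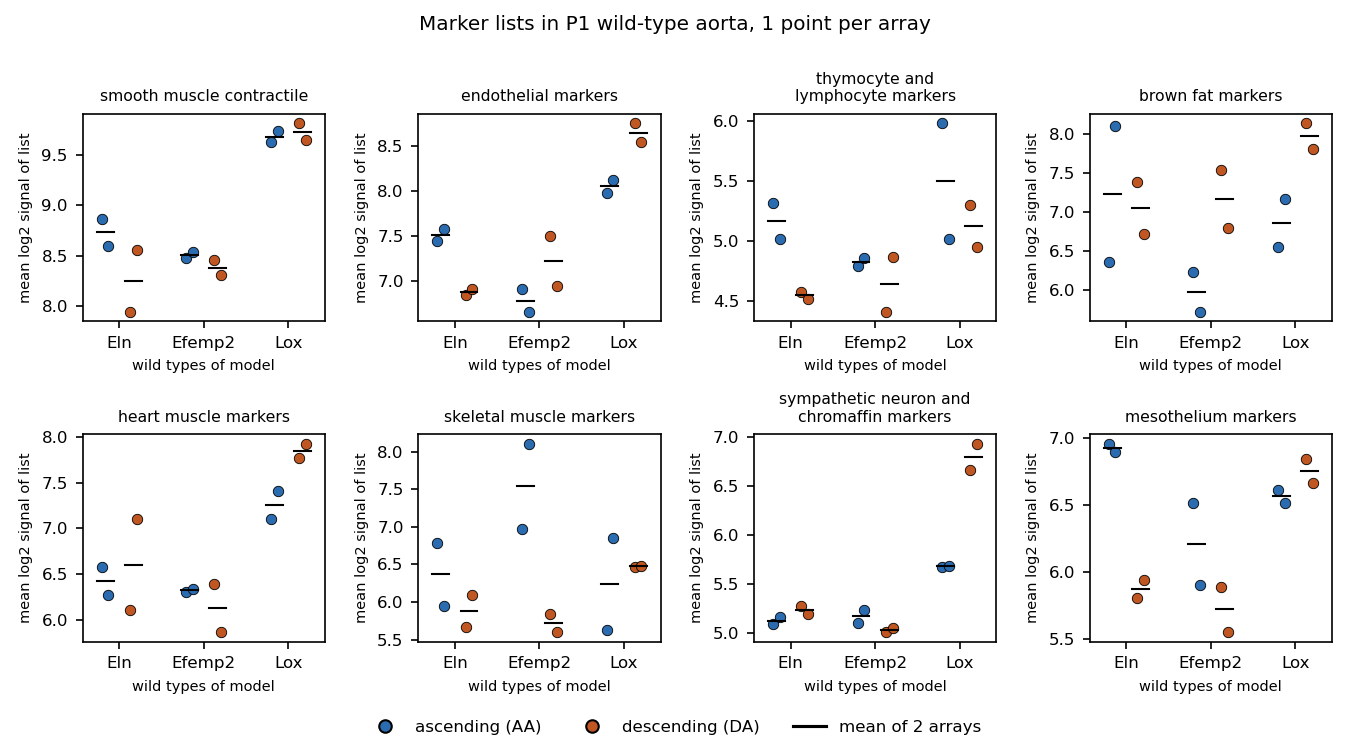
Mean log2 signal of marker lists (vertical axis) in each P1 wild-type array by model, with 1 point per array, coloured by location. The thymocyte list reaches 5.98 in AA and 5.30 in DA, and the skeletal muscle list reaches 8.11 in AA and 6.49 in DA.

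The 58 genes were then read in arrays that the comparison did not use, 12 of E17.5 wild types and 12 of P1 knockouts of Eln, Efemp2 or Lox, with the same strains, locations and pool size. Of the 30 genes higher in DA, 29 had the same sign in the E17.5 wild types and 29 in the P1 knockouts, with Slfn1 as the exception in both, while 46.9% and 68.2% of all tested genes were above 0 there. At E17.5, 26 of the 30 passed as higher in DA (2.23% of all genes), and in the P1 knockouts 27 did (2.52%). All 28 genes higher in AA kept the sign in both, against 53.1% and 31.8% of all genes below 0. In the E17.5 wild types 20 of the 28 passed as higher in AA (1.38%), and in the P1 knockouts 21 did (0.704%). Hoxb6 had 2.73 at E17.5 and 2.33 in the knockouts, Ccl11 had 2.28 and 1.45, Tcf21 had -1.52 and -1.48 and Osr2 had -2.45 and -1.12. Npnt and Ahsg had little difference at E17.5. Npnt had -0.00 at E17.5 and -0.67 in the knockouts, and Ahsg had -0.09 at E17.5 and -0.45 in the knockouts.

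**Figure D5:**
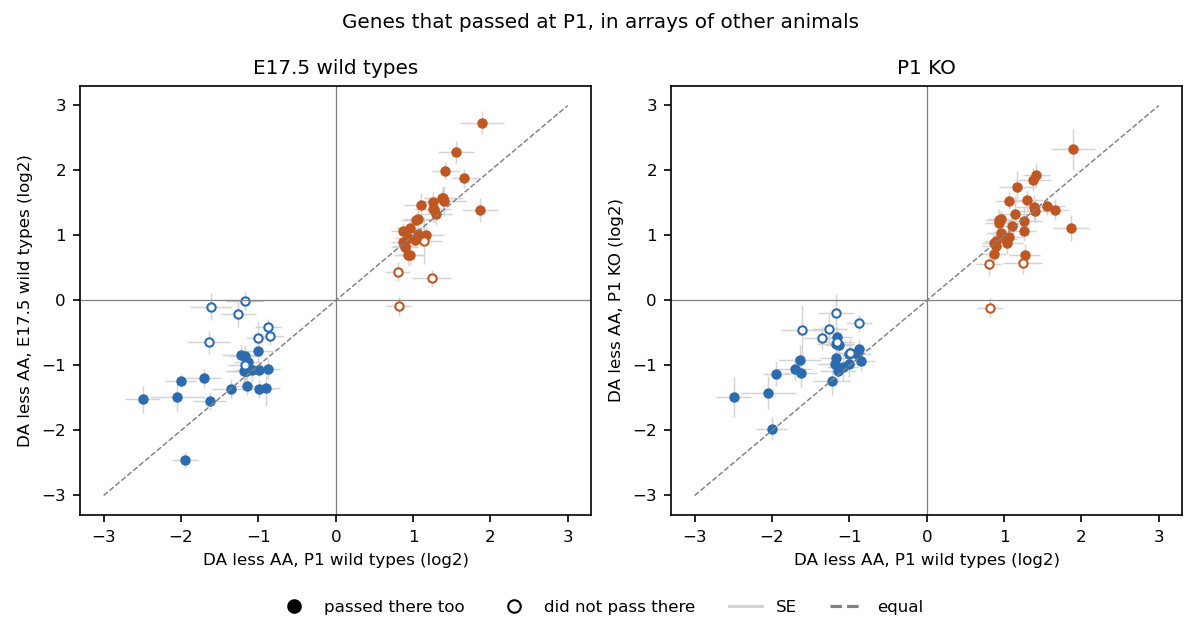
DA less AA of the 58 genes in the P1 wild types (log2, horizontal axis) against the same difference in the E17.5 wild types and in the P1 knockouts (log2, vertical axes), with 1 point per gene and a dashed line of equal values. Points lie in the lower left and upper right parts of both plots, apart from Slfn1.

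Tests of a difference between such effects were run over all 11927 genes. For DA less AA between the 3 models, 0 genes passed in limma (0%, 2044 genes at an unadjusted p under 0.05), and the smallest adjusted p among the 58 genes was 0.172, for Cxcl13. In simulated data this test found 41.5% of genes that differed by 2 between models. Leaving out replicate 2 of Eln DA gave 52 genes, replicate 1 of Efemp2 AA 17 and replicate 2 of Efemp2 AA 12. Within single models, 1353 genes passed in Eln (11.3%), of which 1087 were higher in AA, 3 in Efemp2 (0.0252%) and 15 in Lox (0.126%). The Eln count set both AA arrays against 2 high-background DA arrays, with which location cannot be told apart in that model.

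For P1 less E17.5 in the wild types, 0 genes passed in limma (0%, 1233 at an unadjusted p under 0.05), and the smallest adjusted p among the 58 was 0.197, for Ahsg, with -1.51 ± 0.31. Without replicate 2 of Efemp2 AA at P1, 83 genes passed, and without replicate 2 of Eln DA 1 did. Array medians were 3.71 to 4.49 at E17.5, so stages cannot be told apart from the sets of arrays. For P1 knockouts less P1 wild types, 1 gene passed (0.00838%, 1566 at an unadjusted p under 0.05), and the smallest adjusted p among the 58 was 0.174, for Slfn1. That count became 447 without replicate 2 of Efemp2 AA, 26 without replicate 2 of Eln DA, 23 without replicate 1 of Efemp2 DA, 2 without replicate 1 of Eln AA and 0 without any of replicate 2 of Eln AA, replicate 2 of Efemp2 DA or the 4 Lox arrays.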

How the data were processed

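Per the labels' protocols, 8 snap-frozen aortas were pooled per array, RNeasy Plus Mini was used for extraction, and 5 ng of RNA entered the NuGEN Ovation Pico WTA amplification before biotin labelling. The authors deposited log2 values, 1 per probe set and array, made with RMA in Affymetrix Expression Console, per the submitters' processing notes; versions, array name and genome build are not given in the sources used here. Gene names came from the platform annotation: of 41345 probe sets, 23521 had 1 symbol, 1814 several and 16010 none. The 1-symbol probe sets gave 22180 genes, 21994 of them matched to RefSeq by gene ID with 0 differing symbols. A gene with several probe sets (1082) was read from the brightest. A gene was tested when its AA or DA mean reached 5.19, the median over 1-symbol probe sets, which left 11927 genes.

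DA was compared with AA in limma 3.58.1 (R 4.3.3) with model as a block, 12 arrays, 8 residual degrees of freedom, eBayes and Benjamini-Hochberg adjustment over all tested genes at 0.05. Differences between models were tested with an F test on a mean for each of 6 groups (6 residual degrees of freedom), and those against E17.5 wild types and P1 knockouts as contrasts over 24 arrays. The scripts were tested on simulated data, where 4%, 72%, 92% and 100% of genes changed by 0.5, 1, 1.5 and 2 were recovered and 10 of 144 calls were unchanged genes.

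The genes named were the 15 largest differences each way that passed with the same sign in all models, skipping predicted and small RNA genes and receptor families, up to 4 passing members of each gene list or its largest value if none passed, all passing Hox genes, and Eln and Lox. Other genes were named after their values were seen. The gene lists and this rule were chosen with earlier results of these data known. Promoters came from RefSeq, GRCm38.p6.

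Alternatives were no filter, cyclic loess, centred medians, a block for the replicate number (statmod 1.5.0), trend and robust variances, array background (the median of 1390 receptor genes) as a covariate, the mean of probe sets, all 48 arrays, no model block, and leaving out arrays, models or the 4 high-background arrays.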

Additional observations from a re-analysis of the deposited data

Results flagged for a closer look

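In groups of 6 arrays, 4 of 140 groups (2.86%) had 1 array far from the other 5. For values of 1 population chance gives about 1 in 20 groups. That rate need not hold here, since each group mixes 3 models and genes are not independent. In replicate 2 of Efemp2 AA, Ahsg was at 7.47 where the other AA arrays were at 8.67 to 9.06, Crabp1, a retinoic acid binding protein, was at 4.42 against 5.95 to 6.29, and Smad6 was at 6.64 against 7.85 to 8.36. In replicate 1 of Eln DA, Eln was at 9.20 against 11.65 to 12.27 in the other DA arrays and the AA arrays.

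The location effect of Mir346, a microRNA gene outside the rule for named genes, differed between knockouts and wild types at P1 by -1.73 ± 0.27 (limma, adjusted p = 0.0450), as the only 1 of 11927 genes. Among probe sets that carry several gene symbols or none, 4 of 6858 (0.0583%) passed the same test of location, 3 higher in DA and 1 higher in AA. The largest was probe set 17466861, with several symbols, at 3.35.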

How the results depend on the processing

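The count of 58 genes became 31 with no filter, 121 with cyclic loess, 111 with centred medians, 1278 in a fit of all 48 arrays, 15 without the Efemp2 model, 5 without the Lox model and 1 with no block for model, and 13 to 62 when 1 array was left out. No label says that replicate numbers pair the samples. Correlations of deviations across genes were -0.07, 0.25 and -0.15 in Eln, Efemp2 and Lox. Each rests on 1 deviation per location and cannot show whether the pools shared animals. With the replicate number as a fixed block 24 genes passed and as a random block 37. The share higher in DA was 51.7%, but 63.9% with background as a covariate, 82.5% without the Eln model and 82.4% without the 4 high-background arrays. Of the 30 genes higher in DA 21 passed without those 4 arrays, and of the 28 higher in AA 9 did. Over 42 named genes that passed, 662 of 1092 alternative values passed too, 430 did not and 0 changed sign, which was largely set in advance. Over 28 named genes that did not pass, 43 of 728 values passed, among them those of Col4a5, Fgf7 and Msln with cyclic loess and centred medians. None of these 43 had the opposite sign, and changes of sign among values that did not pass were not counted. Counts of differences between models (0) became 4 and 1 with the fixed and random replicate block and 0 to 52 with 1 array left out. Those between stages (0) became 10 with the fixed block, 1 with the covariate and 0 to 83 with 1 array left out. Those between genotypes (1) became 67 and 20 with the fixed and random block, 0 with no filter, with centred medians or with the covariate, and 0 to 447 with 1 array left out. The causes were not tested. Differences near 0.5, and genes near background such as most Hox genes, are mostly beyond what 12 arrays resolve.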

Other observations

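The remaining genes that passed, outside the rule for named genes, were named after their values were seen. Higher in DA were Ccdc3 (1.07 ± 0.19), Zim1 (1.04 ± 0.20), F3, the gene of tissue factor (0.96 ± 0.19), Il33, an alarmin cytokine (0.94 ± 0.19), Sparcl1, a matricellular protein (0.93 ± 0.16), Sytl2 (0.89 ± 0.17), Arhgap20 (0.87 ± 0.15), Slfn1 (0.82 ± 0.16) and Fhl2 (0.80 ± 0.16). Ccdc3 had a second probe set, with a difference of 0.57. Higher in AA were Sost, the gene of the Wnt inhibitor sclerostin (-1.15 ± 0.23), Cdh6, a cadherin (-1.13 ± 0.18), Kcnj15, an inward rectifier channel (-1.0 ± 0.18), Kcnip4, a partner of potassium channels (-0.99 ± 0.19), Aff2 (-0.99 ± 0.19) and Gm6634 (-1.19 ± 0.22). Cdh6 passed in 21 of 26 other settings, and the others in at most 15. Without the 4 high-background arrays Il33, Sparcl1, Sytl2, Slfn1, Sost, Kcnip4, Aff2 and Gm6634 did not pass.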
